A study of Oryzias latipes with 6 samples.

Results

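The genes that make, package, take up and degrade GABA were followed through 14 clusters of brain nuclei from adult medaka. They are 6 of the 24365 genes in each cluster table, taken by their row names: GAD1, gad1b, gad2, slc32a1, slc6a1a and abat. All 6 were detected in all 14 clusters. Nuclei came from the whole brains of 6 male Japanese medaka (Oryzias latipes) of the F1 generation, aged 6 months, with 1 droplet-based 3' single-nucleus RNA-seq library per brain. The control lineage is 3 offspring of solvent-kept parents. The BaP lineage is 3 offspring of parents that, at 6 months of age, spent 21 days at 1 µg/L of benzo[a]pyrene (BaP), a combustion product of the polycyclic aromatic hydrocarbon class. The F1 fish themselves grew up in clean water, and the comparison asks what differs in offspring of exposed parents.

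GABA is the main inhibitory transmitter of the vertebrate brain. Glutamate decarboxylase makes it from glutamate, a vesicular transporter loads it into synaptic vesicles, membrane transporters of neurons and glia clear it after release, and GABA transaminase breaks it down in mitochondria. In mammals GABAergic neurons usually carry both decarboxylase genes, whereas GABA transaminase is found in neurons and astroglia alike. Which of the fish paralogs the row GAD1 stands for is not given in the sources used here, and reads of similar decarboxylase copies could have been split between the rows.

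The authors' deposited tables pool the 3 fish of a lineage, so no value below has an error across fish. Under the assumptions given with the processing, they hold 7512 nuclei, of which 2429 are control-lineage and 5083 BaP-lineage nuclei. Single clusters hold 69 to 1754. The stated target was 8000 nuclei per fish, so these estimates lie far below it. Mean depth was 684 to 1905 UMIs per nucleus, a UMI being a tag that lets each captured RNA molecule be counted as 1. Levels are given as CPM, a gene's UMIs scaled to an estimated total of UMIs in each cluster, after the prior counts in the authors' deposited values were taken out. The worked-back levels of the lineages did not add up to equal totals in every cluster. In cluster 3 the total without mitochondrial genes was higher in the BaP lineage by 0.64 on the log2 scale. Mitochondrial shares of 28.2% and 13.7% there give less than that on equal totals. In cluster 2 this log2 difference was -0.06, although the mitochondrial share was lower too. Levels compared between lineages are not corrected for this. Intervals are 95% counting intervals (exact Poisson for a level, exact binomial for a ratio) on UMI numbers worked back from the tables. They leave out the spread between nuclei and between fish. Transcripts of the mitochondrial genome took 14.7% to 38.0% of control-lineage UMIs and 6.24% to 35.6% of BaP-lineage UMIs, which lowers or raises every other share with them. Each marker gene's level was set against its mean over the remaining clusters. By this measure cluster 3 was glutamatergic neuron-like (4 of 5 markers at 2 times or more and at least 10 CPM), cluster 9 radial glia-like (11 of 13) and cluster 11 Purkinje neuron-like (9 of 12). The other clusters are given by number only, though some met the same measure for other marker sets. Such were 8 of 10 myelinating glia markers in cluster 6, 5 of 5 epithelial markers in cluster 7 and 9 of 11 endothelial markers in cluster 8. Cluster 5 had 6 of 8 granule neuron markers, and cluster 12 had 6 of 7 oligodendrocyte progenitor markers. Cluster 1 had 9 of 10 GABAergic neuron markers, and clusters 0 and 2 had 3 of 10 each. That set includes members such as gad2 and slc32a1, so it does not describe these clusters independently of the members. Cluster 1 was led by the peptide genes oxt, sst1.1 and npy, cluster 2 by pomca and pou4f2, cluster 6 by myelin genes such as mpz, cluster 7 by krt5 and cluster 8 by the erythrocyte gene hbbe2.

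The decarboxylase genes gad2 and gad1b were high in the same clusters, whereas GAD1 had another peak. gad2 stood at 1190 CPM (1146 to 1236) in cluster 1, 1033 CPM in cluster 2, 822 CPM in cluster 0 and 688 CPM in cluster 11. In the other 10 clusters gad2 lay between 112 CPM in cluster 3 and 315 CPM in cluster 9. The intervals of clusters 1, 2 and 0 did not overlap one another, that of cluster 0 overlapped that of cluster 11, and cluster 11 was apart from cluster 9, the next in order. Among the last 10 clusters the intervals of all neighbors overlapped. gad1b had the same 3 clusters on top, at 552 CPM in cluster 1, 504 CPM in cluster 2 and 381 CPM in cluster 0, of which the first pair overlapped in their intervals. In the Purkinje neuron-like cluster 11 it stood at 219 CPM (154 to 302), or 0.397 times its level in cluster 1.

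GAD1, by contrast, reached 854 CPM (720 to 1004) in cluster 11, which is 2.78 times its 307 CPM (285 to 331) in cluster 1. The ratio of gad2 to GAD1 was 3.87 in cluster 1 and 4.73 in cluster 2 but 0.806 in cluster 11. Further down the order GAD1 stood at 233 CPM (142 to 361) in cluster 12, led by olig1 among others, on 20 UMIs. There gad1b was at its lowest, 45.6 CPM (12.03 to 119) on 4 UMIs, so cluster 12 ranked 3rd of 14 for GAD1 and last for gad1b. GAD1 followed at 218 CPM in cluster 2, 137 CPM in cluster 0 and 133 CPM in cluster 8, and cluster 8 was apart from the next in order, cluster 6 at 62.9 CPM. The lowest GAD1 level was 20.1 CPM (12.1 to 31.4), in the glutamatergic neuron-like cluster 3.

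**Figure D1:**
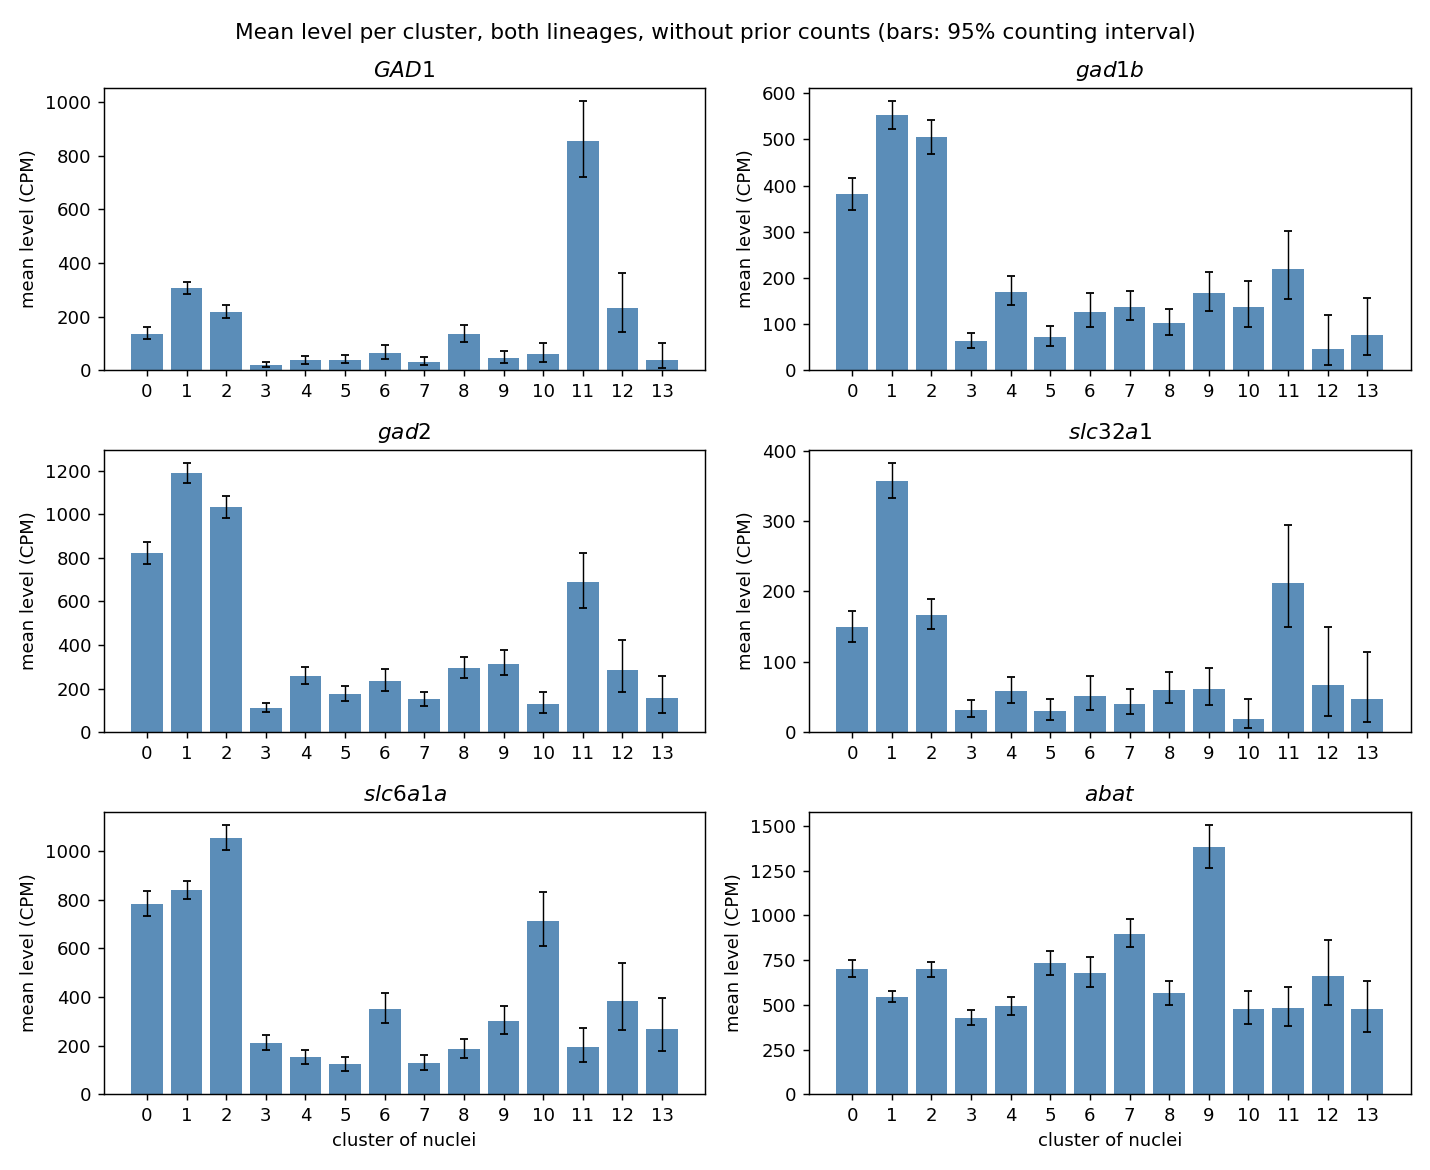
Mean level (CPM, both lineages together) of each gene in clusters 0 to 13, as bars from 0 with 95% counting intervals. gad1b, gad2 and slc32a1 are highest in cluster 1, slc6a1a in cluster 2, GAD1 in cluster 11 at 854 CPM and abat in cluster 9 at 1383 CPM.

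slc32a1, the vesicular transporter that loads both GABA and glycine, followed gad2 most closely. It stood at 357 CPM (333 to 383) in cluster 1, 212 CPM (149 to 294) in cluster 11, 167 CPM in cluster 2 and 149 CPM in cluster 0. Cluster 1 was apart from the next in order, while the intervals of clusters 11, 2 and 0 overlapped. The other 10 clusters held between 19.2 CPM in cluster 10 and 67.0 CPM in cluster 12. The ratio of gad2 to slc32a1 ran from 3.24 in cluster 11 to 6.84 in cluster 10. Clusters led by epithelial and erythrocyte genes, in which neuronal transcripts are not looked for, still gave 151 and 292 CPM of gad2 (clusters 7 and 8), with gad2 to slc32a1 ratios of 3.72 and 4.84. Free RNA from other cells gives such counts in droplets, and its part in these low levels was not tested.

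slc6a1a, which encodes the GABA transporter that returns GABA to the nerve terminal, had another order. It was highest in cluster 2, at 1053 CPM (1002 to 1107), ahead of cluster 1 at 838 CPM, cluster 0 at 782 CPM and cluster 10 at 712 CPM (608 to 830). The last 3 overlapped in neighboring intervals. Cluster 10, led by genes such as calb2a and tcf7l2, was 4th for slc6a1a of 14 but 13th for gad2 and last for slc32a1, the last on 4 UMIs. The vesicular glutamate transporter gene SLC17A6 had its highest level in cluster 10, at 689 CPM, against 415 CPM in the glutamatergic neuron-like cluster 3. The Purkinje neuron-like cluster 11 showed the reverse, at 192 CPM of slc6a1a (10th of 14) with slc32a1 in 2nd place. The ratio of gad2 to slc6a1a was accordingly 0.184 in cluster 10 and 3.58 in cluster 11, against 1.42 in cluster 1.

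abat, the gene of GABA transaminase, was the most evenly spread. Its level peaked in the radial glia-like cluster 9 at 1383 CPM (1268 to 1506), followed by cluster 7 at 899 CPM (822 to 982). Cluster 5 followed, apart from cluster 7, at 732 CPM, and from there on neighbors in the order overlapped, down to 427 CPM (386 to 470) in cluster 3. The highest level was 3.24 times the lowest, against 8.61 times for slc6a1a, 10.6 times for gad2, 12.1 times for gad1b, 18.6 times for slc32a1 and 42.4 times for GAD1.

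Most UMIs of the synthesis, packaging and uptake genes lay in 3 clusters. Clusters 0, 1 and 2 held 51.6% of all UMIs. They held 84.1% of the UMIs of slc32a1, 83.7% of gad2, 82.1% of gad1b, 80.8% of slc6a1a and 76.0% of GAD1, but 50.5% of those of abat. Cluster 11, with 1.76% of all UMIs, gave 9.21% of the GAD1 UMIs.

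**Figure D2:**
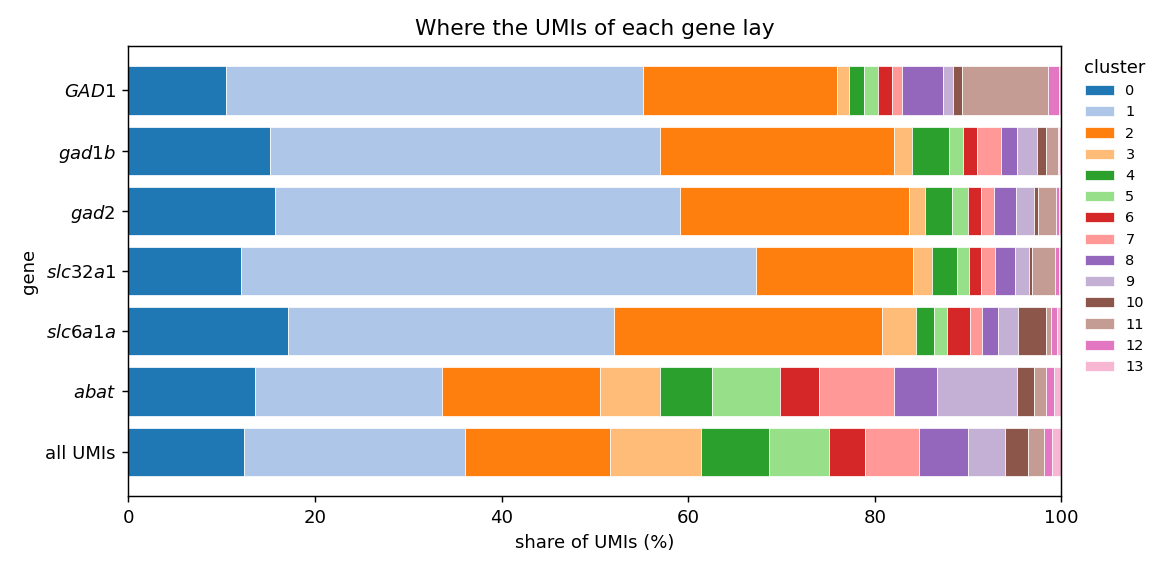
Share of each gene's UMIs (x axis, %) that lay in each cluster (colors), with all UMIs in the bottom bar. abat is spread much like all UMIs (50.5% against 51.6% in clusters 0, 1 and 2), and the other 5 genes are concentrated in those clusters at 76.0% to 84.1%.

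The genes most like each member over the 14 clusters were taken from 5211 symbols by Pearson's r of log2(CPM + 10). These values describe clusters that share fish and libraries, so they carry no p. gad2 and slc32a1 were each other's nearest gene (r = 0.96). Both had glra1, a glycine receptor subunit gene, next (0.91 and 0.93), followed by adssl for gad2 (0.88) and GABRA3, a GABA-A receptor subunit gene, for slc32a1 (0.89). gad1b was nearest to zgc:65851 (0.92), adssl (0.90) and vamp1b (0.90), the last a synaptic vesicle protein gene. For GAD1 the nearest were msi2a (0.92), CUX2 (0.90) and ghrhra (0.90), ahead of slc32a1 (0.81) and gad2 (0.79). slc6a1a was nearest to sobpa (0.87), BCL11B (0.86) and pkma (0.82). abat stood apart from the rest, with r between -0.14 and 0.12 to the other 5 members. Its nearest genes were pax3b (0.93), mlc1 (0.90), a membrane protein gene of astroglia, and cyp26b1 (0.89), a retinoic acid-degrading enzyme gene.

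Between the lineages, abat was lower in BaP-lineage nuclei of clusters 1 and 2, and no other member passed the threshold in any cluster. A difference counts as called, here and in what follows, where the authors' adjusted p is under 0.05. Of the 84 combinations of a member and a cluster, 2 were called in the authors' deposited tables, against 0.248% of all combinations of a gene and a cluster (0.133% lower). The p-values appear to treat nuclei as replicates. In the authors' deposited tables the p before adjustment was under 0.05 for 11 of 84 combinations, of which 4 were of abat, against 3.04% of all combinations of a gene and a cluster. These shares over all genes include genes undetected in a cluster, which cannot be called, and so are low for detected genes such as the members. Between 10140 and 18697 of the 24365 genes were detected per cluster.

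In cluster 2, abat stood at 861 CPM (790 to 937) in the control lineage and 580 CPM (530 to 632) in the BaP lineage, on 542 and 504 UMIs. The 2 intervals did not overlap. The authors' deposited table gave a log2 fold change, BaP lineage over control lineage, of -0.52 (adjusted p = 0.000143), where 0.575% of genes were called lower. Without prior counts it was -0.57 (-0.75 to -0.39).

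In cluster 1, abat stood at 671 CPM (604 to 744) in the control lineage and 504 CPM (472 to 539) in the BaP lineage, on 366 and 881 UMIs, again with intervals apart. The authors' deposited table gave a log2 fold change of -0.37 (adjusted p = 0.04996), just under the threshold, where 0.456% of genes were called lower. Without prior counts it was -0.41 (-0.59 to -0.23). This call was lost with a Bonferroni adjustment.

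Cluster 0 showed a difference of like size that was not called. Its abat levels were 799 CPM (729 to 875) and 606 CPM (545 to 671). The authors' deposited table gave a log2 fold change of -0.32 (adjusted p = 0.174). In cluster 7 the values went the other way, 656 CPM (543 to 785) against 1016 CPM (916 to 1123), with a log2 fold change of 0.57 in the authors' deposited table (adjusted p = 0.935) and counting intervals that did not overlap. In the radial glia-like cluster 9, where abat was highest, the lineages stood at 1293 CPM (1080 to 1536) and 1415 CPM (1280 to 1560), and the intervals overlapped. Over all 14 clusters, 9 log2 fold changes of abat were below 0 and 5 above in the authors' deposited tables. With both lineages scaled to the total without mitochondrially encoded genes, 11 were below 0 and 3 above, with clusters 3 (0.44 as deposited, -0.09 so scaled) and 9 (0.12 and -0.03) turning. In cluster 3 this scaling also takes out the unequal totals of the worked-back lineage levels. The turn there therefore does not measure the mitochondrial share alone. Whether the lineage difference itself differs between clusters was not tested.

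**Figure D3:**
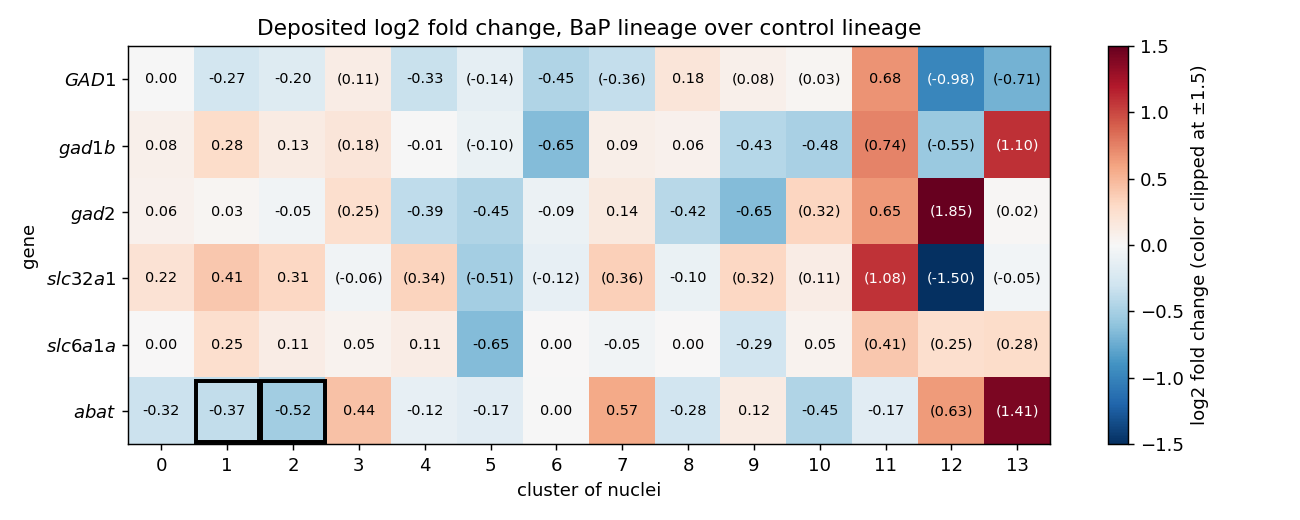
Deposited log2 fold change (BaP lineage over control lineage) of the 6 genes in clusters 0 to 13, with color for size, black frames where the adjusted p was under 0.05, and parentheses where the control lineage held under 10 UMIs. The frames are on abat in clusters 1 (-0.37) and 2 (-0.52).

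Markers of radial glia or astroglia differed in the same direction as abat in these clusters. Their summed level in cluster 2 was 3070 CPM in the control lineage and 2250 CPM in the BaP lineage, in cluster 1 it was 1211 and 1057 CPM, and in cluster 0 it was 1927 and 1543 CPM. Of the 13 markers, 10 had log2 fold changes below 0 in each of clusters 1 and 2 and 9 in cluster 0 of the authors' deposited tables, and none was at 0 CPM. The authors' deposited tables called the marker glula lower in clusters 0 and 2, and glula made up a large part of the summed differences. It had 472 and 256 CPM in cluster 0, 224 and 153 CPM in cluster 1, and 810 and 463 CPM in cluster 2. The marker slc1a2b had 572 and 587 CPM in cluster 0, 432 and 409 CPM in cluster 1, and 1076 and 852 CPM in cluster 2. The direction of the summed level was that of abat in 11 of 14 clusters. These include cluster 9 itself. They also include cluster 11, where the marker slc1a3b alone stood at 1047 CPM of a summed 2364 CPM. Both levels share a scale within each lineage of a cluster, so a shift in the mitochondrial share moves them together. In cluster 2 the summed level was 10.6% of that in cluster 9 in the control lineage and 6.87% in the BaP lineage, while abat was at 66.6% and 41.0% of its level there. The part of these markers in the abat difference was not tested. The mitochondrial share was 17.6% against 8.30% in cluster 1 and 18.03% against 9.99% in cluster 2. After scaling to the total without mitochondrial genes, the log2 ratios of abat without prior counts were -0.45 and -0.51 in clusters 1 and 2. That total differed between the lineages by 0.03 and -0.06 on the log2 scale, since the worked-back lineage levels had unequal totals. The scaled values therefore do not show the effect of the mitochondrial share alone.

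The vesicular transporter gene slc32a1 had the next smallest adjusted p. In cluster 1 it stood at 272 CPM (230 to 319) in the control lineage and 384 CPM (355 to 414) in the BaP lineage, on 148 and 671 UMIs, with counting intervals apart. The authors' deposited table gave a log2 fold change of 0.41 (adjusted p = 0.296). In clusters 0 and 2 the control lineage had 124 and 139 CPM and the BaP lineage 173 and 187 CPM, and the authors' deposited tables gave log2 fold changes of 0.22 and 0.31 (adjusted p = 1 in both). These 3 clusters lay in the same direction, and the level intervals of the lineages overlapped in clusters 0 and 2. The intervals of the log2 ratio without prior counts were 0.04 to 0.94 in cluster 0 and 0.05 to 0.83 in cluster 2. In the Purkinje neuron-like cluster 11, slc32a1 rested on 4 control-lineage UMIs against 33, at 79.9 CPM (19.5 to 216) and 259 CPM (178 to 365). Cluster 12 had the reverse, 4 against 2 UMIs, with a log2 fold change of -1.504 in the authors' deposited table (adjusted p = 1). The p before adjustment in the authors' deposited tables was 0.0454 in cluster 11 and 0.0184 in cluster 12, and neither passed the threshold after adjustment.

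**Figure D4:**
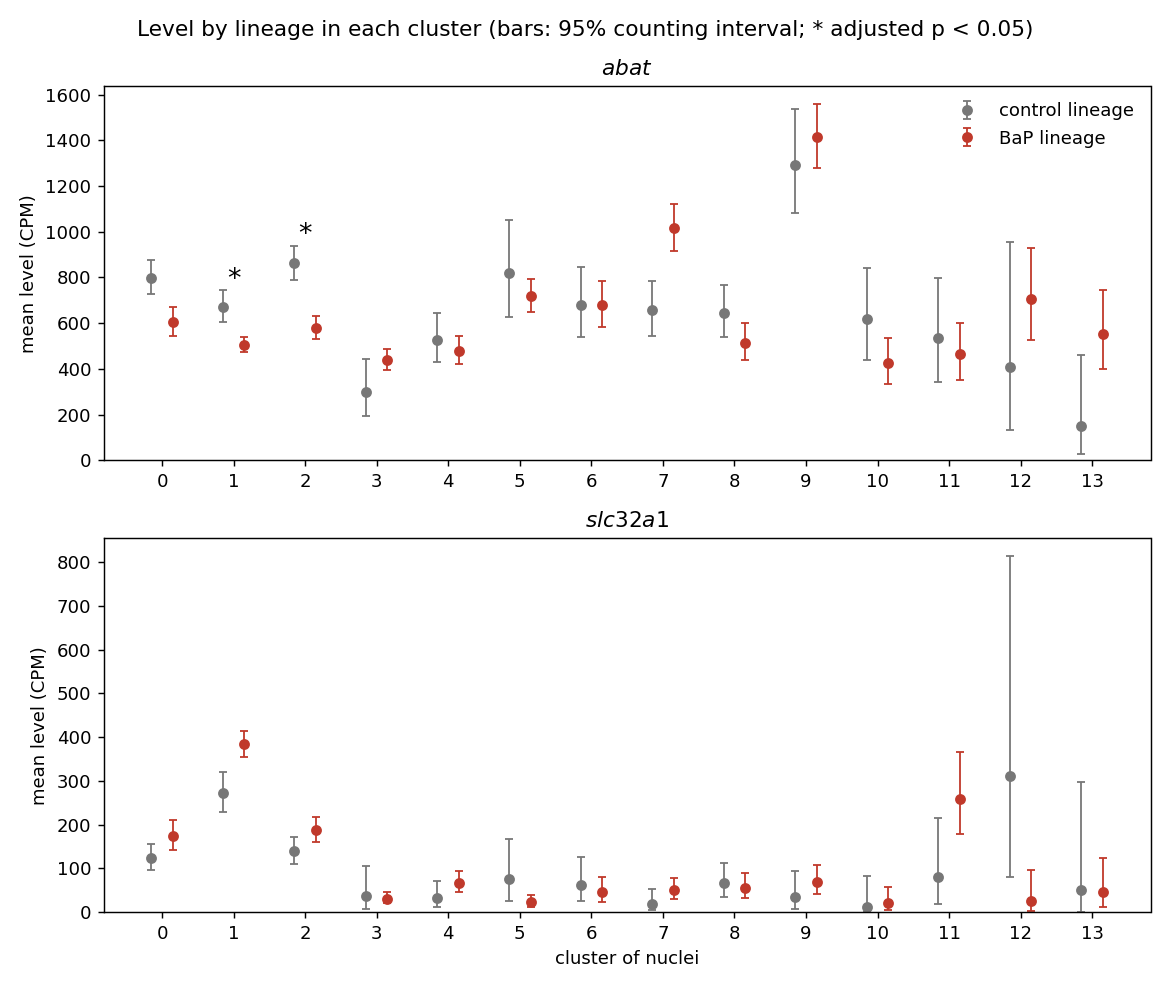
Level (CPM) of abat (top) and slc32a1 (bottom) in clusters 0 to 13 for the control lineage (gray) and the BaP lineage (red), with 95% counting intervals and a star where the adjusted p was under 0.05. abat in cluster 2 goes from 861 to 580 CPM. The wide intervals of clusters 12 and 13 come with 15 and 14 control-lineage nuclei.

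The decarboxylase genes showed no called difference. As with slc32a1 in cluster 1, the level intervals of the lineages were nevertheless apart for gad1b in clusters 1 and 6 and for gad2 in cluster 9. gad2 had similar levels in both lineages in the 3 clusters where it was highest, with 1172 and 1196 CPM in cluster 1, 1054 and 1017 CPM in cluster 2, and 799 and 844 CPM in cluster 0. The intervals of its log2 ratio without prior counts were -0.10 to 0.16, -0.20 to 0.10 and -0.10 to 0.26 in these clusters. In cluster 9 gad2 had 471 CPM (346 to 626) and 260 CPM (204 to 326), with a log2 fold change of -0.65 in the authors' deposited table (adjusted p = 1). In cluster 12 it had no UMI in the control lineage by this estimate (up to 301 CPM by the exact Poisson interval) and 335 CPM (215 to 497) in the BaP lineage, level intervals that overlapped. The interval of its log2 ratio there began at 0.04 and had no upper bound. gad1b had 466 CPM (410 to 527) and 579 CPM (544 to 616) in cluster 1, for which the authors' deposited table gave an adjusted p of 0.947. In cluster 6, led by myelin genes, gad1b had 212 CPM (136 to 314) and 87.6 CPM (55.6 to 131), on 25 and 23 UMIs, with a log2 fold change of -0.65 in the authors' deposited table (adjusted p = 0.620).

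GAD1 went the other way from gad1b in cluster 1, at 365 CPM (316 to 419) and 289 CPM (265 to 316), with a log2 fold change of -0.27 in the authors' deposited table (adjusted p = 0.9896). In cluster 11, where GAD1 was highest, the levels were 567 CPM (368 to 836) and 955 CPM (791 to 1142), with a log2 fold change of 0.68 in the authors' deposited table (adjusted p = 1). There gad1b, gad2 and slc32a1 also had log2 fold changes above 0, of 0.74, 0.65 and 1.08, on 5, 20 and 4 control-lineage UMIs. The median over the better-expressed genes of cluster 11, those above the median level of its detected genes, was itself 0.23. The summed level of all genes but the mitochondrially encoded ones differed by 0.42 on the log2 scale there. Mitochondrial shares of 25.6% and 12.2% give less than that on equal totals, so it also holds unequal totals of the worked-back lineage levels. With this summed level as the scale, the log2 ratios without prior counts went from 0.75 to 0.33 for GAD1 and from 1.09 to 0.67 for gad1b. For gad2 they went from 0.74 to 0.32 and for slc32a1 from 1.70 to 1.28. slc6a1a had 725 CPM (655 to 800) and 873 CPM (830 to 918) in cluster 1, with intervals apart. Its log2 fold change there was 0.25 in the authors' deposited table (adjusted p = 0.619). In cluster 5 it had 226 CPM (132 to 362) and 108 CPM (82.1 to 139), with a log2 fold change of -0.65 in the authors' deposited table (adjusted p = 1).

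Over the whole brain, the lineages also differed in how their nuclei were spread over the clusters. Cluster 0 held 37.5% of control-lineage and 16.6% of BaP-lineage nuclei, and cluster 3 held 2.92% and 12.6%. The numbers of nuclei per fish are not used here. Summed over clusters, gad2 was at 727 CPM in the control lineage and 618 CPM in the BaP lineage, a log2 ratio of -0.23. With each cluster given the same weight in both lineages, these became 656 and 647 CPM, a ratio of -0.02. For slc32a1 the log2 ratio was 0.38 as measured and 0.41 at the same mix of clusters, and for abat it was -0.29 and -0.19. The ratios of gad1b (-0.07 and 0.15) and slc6a1a (-0.16 and 0.11) turned with the mix, while GAD1 had -0.30 and -0.22. None of these sums has a replicate check.

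The rest of the pathway was taken from lists of 111 further genes in the tables, in 1554 combinations with a cluster. Of these, 10 were called higher (0.644%) and 2 lower (0.129%), against 0.116% and 0.133% of all combinations, in the authors' deposited tables. The calls were on 8 genes, and 103 genes were called in no cluster. None was on the 16 GABA-A and GABA-rho receptor subunits, the 7 other GABA and related transporters, the 32 transcription factors or the 15 peptide and calcium buffer genes of GABAergic neurons. Before adjustment, p was under 0.05 for 18, 7, 18 and 15 combinations of these lists in the authors' deposited tables, or 8.04%, 7.14%, 4.02% and 7.14% of each, against 3.04% over all genes. The shares over all genes again include undetected genes, so a list share above them is not by itself an excess.

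The list of glutamate, glutamine and cofactor supply and succinic semialdehyde breakdown held 7 of the 12 calls, on pdxkb, glula and slc1a2b. It has 23 of the 111 genes and 322 of the 1554 combinations. Of these combinations 2.17% were called, against 0.248% over all genes. pdxkb encodes pyridoxal kinase, which makes pyridoxal phosphate, the cofactor of glutamate decarboxylase and of GABA transaminase. In cluster 2 it stood at 86.6 CPM in the control lineage and 185 CPM in the BaP lineage, with a log2 fold change of 0.72 in the authors' deposited table (adjusted p = 0.000785), where 0.131% of genes were called higher. In cluster 4 it had 99.4 and 250 CPM, with a log2 fold change of 0.82 in the authors' deposited table (adjusted p = 0.0339), where 0.296% were called higher. In the radial glia-like cluster 9 it was estimated at 0 CPM in the control lineage and at 175 CPM in the BaP lineage, or 5.85 times the level that 3 UMIs would give in the control lineage (30.0 CPM), the counting error of the BaP level not included. The authors' deposited table gave an adjusted p of 0.00179 for it, where 0.0657% of genes were called higher. pdxkb thus rose in 3 clusters. Its log2 fold change was above 0 in all 14 of the authors' deposited tables. In cluster 12 it turned from 0.02 as deposited to -0.18 when scaled to the total without mitochondrial genes and to -0.27 relative to the median of the better-expressed genes. The first of these scales also takes out unequal totals of the worked-back lineage levels there.

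glula, the gene of glutamine synthetase, which in the brain is chiefly an astroglial enzyme, was called in both directions. It was lower in clusters 0 (472 and 256 CPM) and 2 (810 and 463 CPM), for which the authors' deposited tables gave log2 fold changes of -0.58 and -0.73 (adjusted p = 0.000414 and 3.85e-05). In cluster 0, 0.222% of genes were called lower. In cluster 6 it was higher, at 1319 and 2432 CPM, with a log2 fold change of 0.82 in the authors' deposited table (adjusted p = 0.000956), where 0.271% of genes were called higher. slc1a2b, an astroglial glutamate transporter gene, was higher in cluster 3, at 315 and 849 CPM, with a log2 fold change of 1.21 in the authors' deposited table (adjusted p = 0.0379). All 13 radial glia or astroglia markers had log2 fold changes above 0 there, with a summed level of 542 and 1663 CPM, and their part in the difference was not tested.

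Cluster 3 also had higher SLC4A10, a bicarbonate transporter gene, at 177 and 639 CPM, with a log2 fold change of 1.44 in the authors' deposited table (adjusted p = 0.00324). nlgn2a, an adhesion gene of inhibitory synapses, had 116 and 422 CPM there, with 1.30 in the authors' deposited table (adjusted p = 0.0145). In cluster 3, 0.3% of genes were called higher, the control lineage held 71 nuclei, and the median log2 fold change of the better-expressed genes was 0.25. The mitochondrial share was 28.2% in the control lineage and 13.7% in the BaP lineage, and the summed level of all other genes differed by 0.64 on the log2 scale. That is more than these shares give on equal totals, so it also holds the unequal totals of the worked-back lineage levels. With the summed level of all other genes as the scale, log2 ratios without prior counts went from 1.43 to 0.79 for slc1a2b. They went from 1.85 to 1.21 for SLC4A10 and from 1.86 to 1.22 for nlgn2a. Of the receptors, gabbr2 of the GABA-B receptor was higher in cluster 4, at 881 and 1331 CPM, with a log2 fold change of 0.55 in the authors' deposited table (adjusted p = 0.0244). SLC17A6, a vesicular glutamate transporter gene, was higher there too, at 159 and 356 CPM, with 0.83 in the authors' deposited table (adjusted p = 0.0495). nlgn2b, a paralog of nlgn2a, was higher in cluster 0, at 334 and 487 CPM, with 0.37 in the authors' deposited table (adjusted p = 0.0154), where 0.148% of genes were called higher.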

How the data were processed

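Nuclei of 6 whole brains, 3 per lineage, were profiled with 10x Chromium 3' libraries (labels' protocols). Cell Ranger is named, with no version, in the processing notes of the submitters. Alignment to a medaka assembly, aggregation and a comparison within each cluster are per the series design text, and the tool of the comparison is not given in the sources used here. Per the file headers, the authors deposited for each of 14 clusters each gene's log2 fold change, mean CPM on a log2 scale, p-value and adjusted p-value. No column belongs to a single fish. The direction of the fold change follows the 0 and 1 given to the lineages in the tables' names.

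The lowest log2 mean CPM of a table, that of undetected genes, gives the mean depth for a prior count of 2 per nucleus. Genes with 1 count give the nuclei per lineage, for a prior count of 0.125 in the fold change. These are defaults of a negative-binomial exact test that no source states. The same arithmetic gave levels and UMI numbers per lineage. It was run on simulated tables of 4800 genes modelled on clusters 4, 10 and 12. The numbers of nuclei came back, and the median ratio of found to true level, both lineages together, was 0.999 to 1.01. It was taken only over genes counted several times in each lineage, 211, 959 and 1490 genes for clusters 12, 10 and 4. In these genes the log2 ratio between lineages without prior counts had a median absolute error of 0.0129 to 0.0497. Genes with fewer counts were not checked in this way. The simulated tables were built with the same prior counts and the same rule for genes with 1 count. They therefore check the arithmetic only, and cannot show that the authors' deposited values follow these defaults. How doublets were treated is not given in the sources used here, and no cell could be removed from the tables. Members, lists and markers were chosen with earlier results of these data known. Named genes are the members, the 3 symbols nearest to each member among genes with at least 50 CPM in 1 cluster, and up to 6 called genes per list. Lists were matched without regard to case, with a or b added or dropped. Calculations used Python 3.11, numpy 2.4.6, pandas 2.3.3 and scipy 1.17.1. No coordinates are given, since the gene table at hand is of another assembly. Alternatives varied the threshold, the adjustment, the scaling, the prior counts, the lineage and the likeness measure.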

Additional observations from a re-analysis of the deposited data

How the results depend on the processing

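No paired analysis was possible because the tables hold no values per fish, and for the same reason no replicate could be left out. Of the alternatives tried, 22 of 33 were counted as unchanged, which did not require an identical value. In these, the number of calls or the highest cluster was kept, or a log2 fold change stayed within its counting interval. For the nearest genes, 13 or more of 18 shared was counted as unchanged. The 2 called combinations, abat in clusters 1 and 2, stayed 2 at an adjusted p under 0.1 and when p was adjusted over detected genes only. The count was 1 when a log2 fold change of 0.5 or more was required and 1 with a Bonferroni adjustment, in each case abat in cluster 2. Its log2 fold changes stayed within their counting intervals under every scaling tried, from -0.37 to -0.45 in cluster 1 and from -0.51 to -0.57 in cluster 2. With the control lineage alone, the highest level was in cluster 2 for gad1b and in cluster 12, on 4 UMIs, for slc32a1. With the BaP lineage alone, an alternative added after the data were seen, all 6 highest clusters stayed. With the prior count left in, the highest deposited value was in cluster 0 for all 6 genes, since that cluster has the lowest depth and so the highest floor (11.50). Of the 18 nearest genes, 8 were shared when Spearman replaced Pearson, and 13 to 16 under the other pseudocounts and filters. Depth limits the small clusters: 31 of 84 combinations rest on fewer than 10 control-lineage UMIs.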

Other observations

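The other plasma membrane GABA transporter genes, whose levels were looked at after the data were seen, had their highest levels outside the clusters rich in gad2. SLC6A11, which in mammals encodes an astroglial GABA transporter, stood at 4112 CPM in the radial glia-like cluster 9 and at 92.7 CPM in cluster 1. Its next highest level was 482 CPM, in cluster 5. slc6a1b, the paralog of slc6a1a, was also highest in cluster 9, at 161 CPM. Its next highest levels were in the gad2-rich clusters 2, 1 and 0, at 63.8, 59.9 and 54.5 CPM. SLC6A13, which in mammals encodes a transporter of GABA and taurine in meninges and liver, stood at 1114 CPM in cluster 13, led by plasma protein genes such as ahsg2 and apoa1b. It lay at 19.6 CPM or less in the other 13 clusters. None of these genes was called between lineages in the authors' deposited tables. Among the leading genes of cluster 1 was slc6a5, a glycine transporter gene, at 10.0 times its mean in the other clusters, with 10 CPM added to both levels. aldh5a1, whose enzyme takes up the product of GABA transaminase, was at 10.5 CPM or less in all 14 clusters, too low to compare the lineages.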
